A study of Mus musculus with 2 samples.

Results

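The miR-34 family and Mir449a were described in the adrenal gland of aged female mice. The genes were taken by name, Mir34a, Mir34b, Mir34c and Mir449a, and all 4 were found among the 2202 miRNA genes counted in both libraries. Small RNA was sequenced from adrenal tissue of B6CASTF1/J females, hybrids of the C57BL/6J and CAST/EiJ strains, aged 18 to 20 months, with no treatment given in the labels. The labels hold a single group of 2 biological replicates, which are separate tissue samples under the same donor entry, and no condition was compared. Whether they come from separate animals is not stated. It is thus unknown how far the spread between them is technical or biological. Counts on the own strand of miRNA genes totalled 2590051 in replicate 1 and 2291030 in replicate 2, and levels are given as counts per 1000000 of these totals (CPM).

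MicroRNAs are short RNAs that guide Argonaute proteins to messenger RNAs, mainly by pairing of the seed, bases 2 to 8 from the 5′ end of the mature strand. In mouse and human cells p53, the transcription factor that responds to DNA damage and other stress, binds near the miR-34 genes and raises their transcription, and the miR-34 miRNAs repress cell cycle and survival genes. Mir34b and Mir34c are made from a shared primary transcript and Mir34a from its own. Mir449a, in an intron of Cdc20b, carries the same seed and is best known from multiciliated epithelia and testis, where it acts together with miR-34b and miR-34c.

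The mature sequences, from RefSeq on GRCm38.p6, are shown because the shared seed defines the group while the remaining bases set the members apart. The seed is in capitals.
mmu-miR-34a-5p: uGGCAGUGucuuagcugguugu
mmu-miR-34b-5p: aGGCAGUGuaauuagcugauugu
mmu-miR-449a-5p: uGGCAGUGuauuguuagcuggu
mmu-miR-449c-5p: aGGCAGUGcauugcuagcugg
mmu-miR-34b-3p: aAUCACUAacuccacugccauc
mmu-miR-34c-3p: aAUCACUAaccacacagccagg

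Among 1679 mature miRNAs in the sequence table, 4 had the seed GGCAGUG, those of the 5p arms of Mir34a, Mir34b, Mir449a and Mir449c. The sequence table held no entry for the 5p arm of Mir34c, miR-34c-5p, which is named only, and none for Mir449b. The seeds of these strands were thus not checked. The 7 letters of the seed also occur in the Mir34c hairpin, and in 17 of 1005 hairpins overall (1.69%). Set side by side from the 5′ end without gaps, miR-34a-5p had 15 of 22 bases equal to miR-449a-5p and 11 of 22 to miR-34b-5p. Without gaps, bases that follow an extra base fall out of step, and miR-34b-5p has 23 bases against 22. These counts therefore do not rank the members by likeness, and miR-34c-5p was not compared. The 3p arms of Mir34b and Mir34c share a seed of their own, AUCACUA, found in no other mature miRNA of the table, and 17 of their 22 bases are equal. Reads were counted per hairpin gene, so the 5p and 3p arms of a member were not told apart in these counts.

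The members lie at 3 loci (mm10, GENCODE M21). Mir34a (ENSMUSG00000065493.1) lies on chromosome 4, 150068454 to 150068555, plus strand, and its last 17 bases overlap an exon of Gm37795, an unconfirmed transcript on the same strand. Mir34c (ENSMUSG00000065587.1) lies on chromosome 9, 51103034 to 51103110, and Mir34b (ENSMUSG00000065492.1) at 51103562 to 51103645, both on the minus strand. They are 451 bases apart and sit in an intron of Btg4, which is read from the opposite strand. Mir449a (ENSMUSG00000065575.1) lies on chromosome 13, 113037534 to 113037624, plus strand, in an intron of Cdc20b, 35 bases from Mir449b and 1442 bases from Mir449c. The gene counts hold uniquely aligned reads, and 0 of the 4 hairpins share 18 bases with a miRNA gene elsewhere. By predicted folding energy per base, Mir449a was the most stable of the 4 hairpins, at -0.489 kcal/mol, below 81.6% of hairpins, while Mir34a, Mir34b and Mir34c lay between -0.418 and -0.387 kcal/mol, near the median of -0.406.

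The group was detected at a moderate level, carried almost wholly by Mir34a and Mir34c. The 4 genes together had 13809 counts in replicate 1 and 10672 in replicate 2, which is 5332 CPM (Wilson 95% interval 5244 to 5421) and 4658 CPM (4571 to 4747). The mean was 4995 ± 476 CPM (SD, n = 2), or 0.499% ± 0.0476 of all miRNA counts. All 4 had at least 10 counts in each library, as did 339 of the 2202 genes. Each miRNA read spans most of the mature strand, so levels were compared between genes as counts, without division by length.

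Mir34c, the leading member by mean, had 6613 counts in replicate 1 and 7271 in replicate 2, or 2553 CPM (2493 to 2615) and 3174 CPM (3102 to 3247). Its mean of 2863 ± 439 CPM (SD, n = 2) placed it at rank 45 of the 2202 genes, with ranks of 49 and 43 in the libraries. Mir34a, the member best known as a p53 target, had 6963 and 3182 counts, or 2688 CPM (2626 to 2752) and 1389 CPM (1342 to 1438). Its mean was 2039 ± 919 CPM (SD, n = 2), rank 56, with ranks of 48 and 66 in the libraries. Mir34a was the higher of the pair in replicate 1 and Mir34c in replicate 2, and the ranges of their levels overlapped, so their order was not settled by these 2 libraries.

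Mir34b, the partner of Mir34c on the shared transcript, had 196 and 175 counts, or 75.7 CPM (65.8 to 87.0) and 76.4 CPM (65.9 to 88.6), a mean of 76.0 ± 0.503 CPM (SD, n = 2) and rank 197. Mir449a had 37 and 44 counts, or 14.3 CPM (10.4 to 19.7) and 19.2 CPM (14.3 to 25.8), a mean of 16.7 ± 3.48 CPM (SD, n = 2) and rank 289. Mir34b lay above Mir449a and below Mir34a and Mir34c in both libraries, with no overlap of their ranges. Mir449b and Mir449c, the neighbours of Mir449a in Cdc20b, had 0 counts in both libraries, which allows up to 1.16 CPM in replicate 1 and 1.31 CPM in replicate 2. The intervals and these limits cover counting error only.

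**Figure D1:**
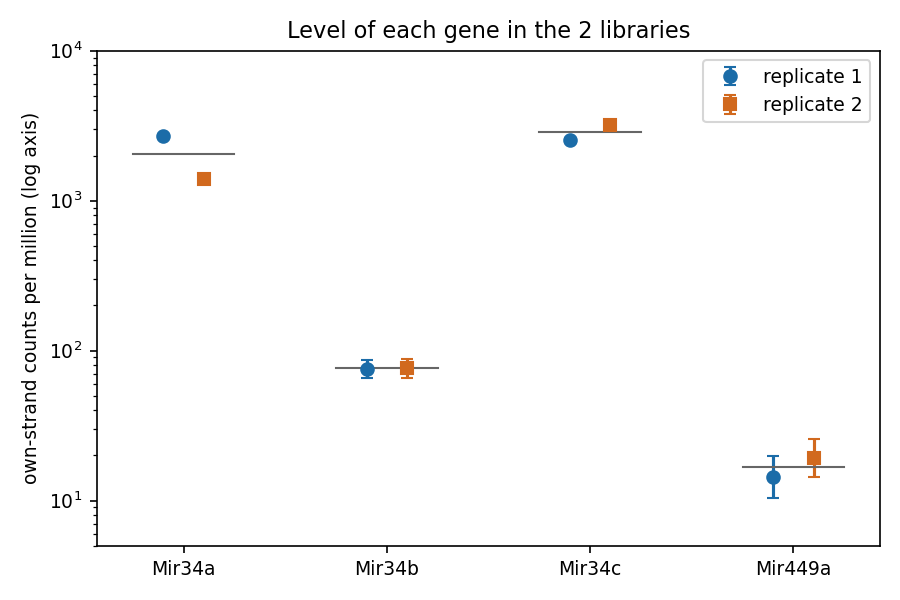
Level in CPM on the own strand (log axis) of the 4 genes in replicate 1 (circles) and replicate 2 (squares), with Wilson 95% intervals and the mean of both libraries as a grey line. Mir34a and Mir34c sit between 1389 and 3174 CPM, Mir34b near 76.0 and Mir449a near 16.7 CPM.

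Within the group, the share held by each gene differed between the libraries mainly through Mir34a and Mir34c. Mir34a made up 50.4% of the summed counts in replicate 1 (49.6 to 51.3) and 29.8% in replicate 2 (29.0 to 30.7). Mir34c made up 47.9% (47.1 to 48.7) and 68.1% (67.2 to 69.0). Mir34b held 1.42% and 1.64%, and Mir449a 0.268% and 0.412%. The summed level moved less than that of Mir34a, being 1.14-fold higher in replicate 1, against 1.94-fold for Mir34a in CPM.

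**Figure D2:**
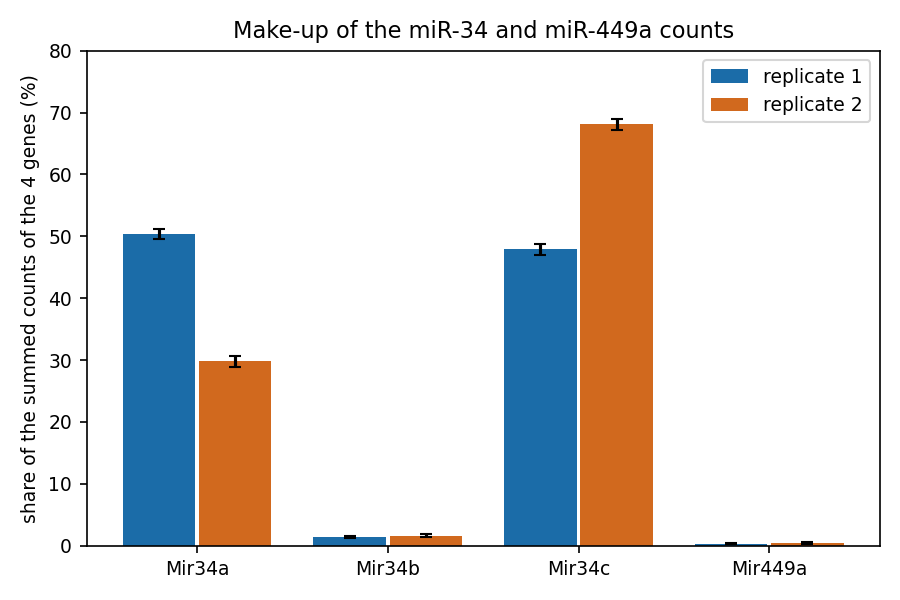
Share (%) of the summed counts of the 4 genes held by each gene in the 2 libraries, with Wilson 95% intervals. Mir34a holds 50.4% in replicate 1 and 29.8% in replicate 2, and Mir34c holds 47.9% and 68.1%.

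The ratio between 2 genes of the same library does not depend on how libraries are scaled. Mir34a had 1.05 counts for each count of Mir34c in replicate 1 (exact 95% interval 1.02 to 1.09) and 0.438 in replicate 2 (0.420 to 0.456). Relative to Mir34a, Mir34c was thus 2.41-fold higher in replicate 2 (2.28 to 2.54), a pair chosen after the values were seen and given with no test. Mir34c had 33.7 counts for each count of Mir34b in replicate 1 (29.3 to 39.1) and 41.5 in replicate 2 (35.8 to 48.5). That ratio was 1.23-fold higher in replicate 2 (0.996 to 1.52), which did not pass a two-sided Fisher's exact test (p = 0.0513), although it did so with strand ignored (p = 0.0472). Mir34b had 5.30 counts for each count of Mir449a in replicate 1 (3.71 to 7.75) and 3.98 in replicate 2 (2.84 to 5.67), with intervals that overlap.

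Although Mir34b and Mir34c come from the same transcript, their mean levels were 37.7-fold apart. Among 108 pairs of neighbouring miRNA genes (detected, read from the same strand and at most 10 kb apart), 15 had a wider gap in level, and the median gap was 2.31 on the log2 scale against 5.24 for Mir34b and Mir34c. Their log2 ratios between the libraries differed by 0.30, where the median pair differed by 0.52 and 77 of the 108 pairs differed by more. These pairs share libraries and loci and are given as a description.

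Read counts of the libraries were also compared gene by gene in an exact conditional binomial test, two-sided, with TMM-scaled library sizes. Adjustment by Benjamini-Hochberg ran over the 367 miRNA genes that had 20 or more counts in the 2 libraries together. Counting error is the only spread in this comparison of libraries, and it called 230 of the 367 genes (62.7%), 119 higher in replicate 1 (32.4%) and 111 higher in replicate 2 (30.2%). All 4 members were tested and 2 were called, Mir34a higher in replicate 1 and Mir34c higher in replicate 2, a share no higher than that over all genes. Mir34a had a log2 ratio, replicate 2 over replicate 1, of -0.92 (95% interval -0.98 to -0.85, adjusted p = 1.19e-204, exact test). Mir34c had a log2 ratio of 0.35 (0.30 to 0.40, adjusted p = 6.96e-46, exact test). Mir34b, with a log2 ratio of 0.05 (-0.25 to 0.35, adjusted p = 0.815, exact test), and Mir449a, with 0.46 (-0.20 to 1.14, adjusted p = 0.201, exact test), did not pass.

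The differences of Mir34a and Mir34c were set against the spread over all miRNAs. The median absolute log2 ratio over the 367 genes was 0.46, and 79 genes had a larger one than Mir34a and 225 a larger one than Mir34c. The common dispersion from edgeR over the 2 libraries gave a coefficient of variation of 0.431, which edgeR terms biological. With it, the log2 ratio of a gene at the level of Mir34a has an SD of 0.88, and -0.92 is close to 1 SD. The dispersion was estimated from these same 2 libraries, Mir34a included. This SD is thus a description of their spread and not an independent check. Of the 34 genes with a mean level within 2-fold of Mir34a, 33 were called and 6 had a larger absolute log2 ratio, and their median was 0.48. Of 35 such genes around Mir34c, 34 were called and 21 had a larger absolute log2 ratio. At this depth the test called nearly every gene of that level. For Mir449a, with 37 and 44 counts, the interval reaches from -0.20 to 1.14. Neither an equal level nor an excess of about 2-fold in replicate 2 was excluded.

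**Figure D3:**
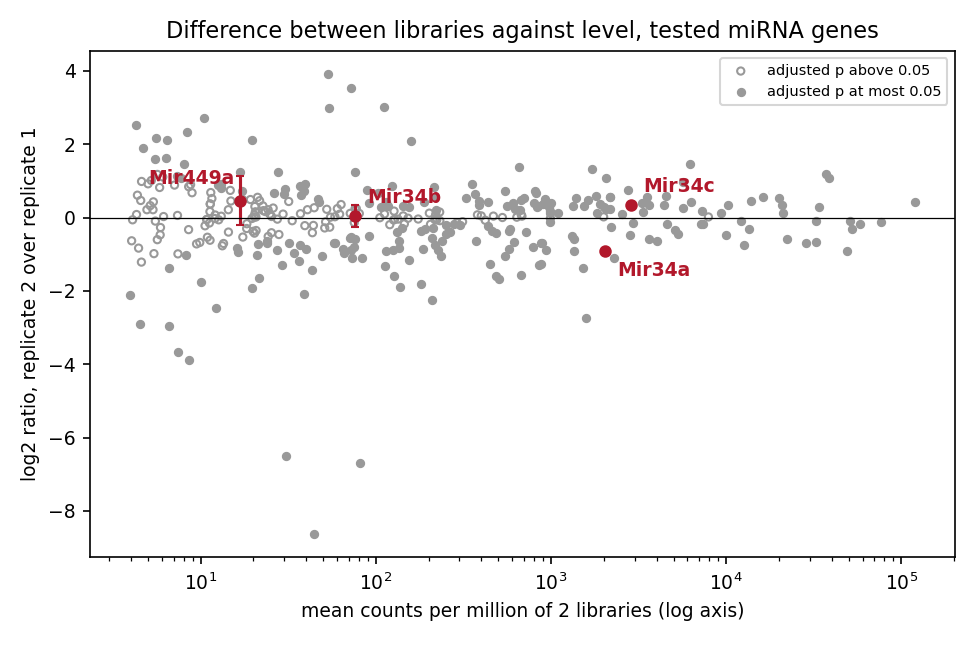
Log2 ratio, replicate 2 over replicate 1, against mean CPM (log axis) for the 367 tested miRNA genes, filled where the adjusted p of the exact test was at most 0.05. The 4 genes are in red with exact 95% intervals. Mir34a lies at -0.92 and Mir34c at 0.35, within the cloud of genes of like level.

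Genes with levels most like each member over the 2 libraries were found by distance of log2(CPM + 1). Mir100 was the nearest to Mir34a, with 3159 and 1431 CPM (distance 0.24), followed by Mir130a at 0.53 and Mir676 at 0.66. Mir328, at 2873 and 3704 CPM, was the nearest to Mir34c (0.28), followed by Mir324 at 0.30 and Mir140 at 0.33. Mir34b was nearest to Mir138-1 (0.12), Mir224 (0.13) and Mir543 (0.13), and Mir449a to Gm24270 (0.07), Mir138-2 (0.19) and Mir1945 (0.23). Gm24270 shares 18 bases with 5 other miRNA genes, and Mir138-1 and Mir138-2 with 1 each, so the levels of these genes may be undercounted. With 2 libraries this likeness is little more than a like level and a like ratio.

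Other miRNAs reported to rise with p53, by transcription or by processing of their precursors and mostly in human cells, were listed beside the members. Of 16 listed symbols, 15 were in the tables and 12 were tested. Of these, 5 were higher in replicate 1 (Mir143, Mir22, Mir15a, Mir16-1 and Mir192), 5 were higher in replicate 2 (Mir107, Mir145a, Mir200c, Mir200b and Mir141) and 2 did not pass. Over all 367 tested genes 62.7% were called, 32.4% higher in replicate 1 and 30.2% higher in replicate 2, so calls in both directions are not particular to this list. The median log2 ratio was -0.19, against 0.02 over all tested genes. The list summed to 48396 CPM in replicate 1 and 32915 CPM in replicate 2, mostly from 2 genes. In the list 4 genes, Mir107, Mir16-1 and Mir194-2 among them, share 18 bases with other miRNA genes, so their reads may be undercounted.

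Mir143, a smooth muscle miRNA whose processing p53 was reported to aid, had 27092 and 17510 CPM and a log2 ratio of -0.59. Mir22, a senescence-associated miRNA, had 15931 and 9251 CPM and a log2 ratio of -0.75. Mir107, in an intron of a pantothenate kinase gene, had 1932 and 2193 CPM and a log2 ratio of 0.22 (adjusted p = 6.39e-14, exact test). It shares 18 bases with 2 other miRNA genes, so its reads may be undercounted. Mir192, a classical p53-induced miRNA that is also abundant in kidney, had 85 and 23 counts and a log2 ratio of -1.65 (-2.40 to -0.99, adjusted p = 2.51e-07, exact test).

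**Figure D4:**
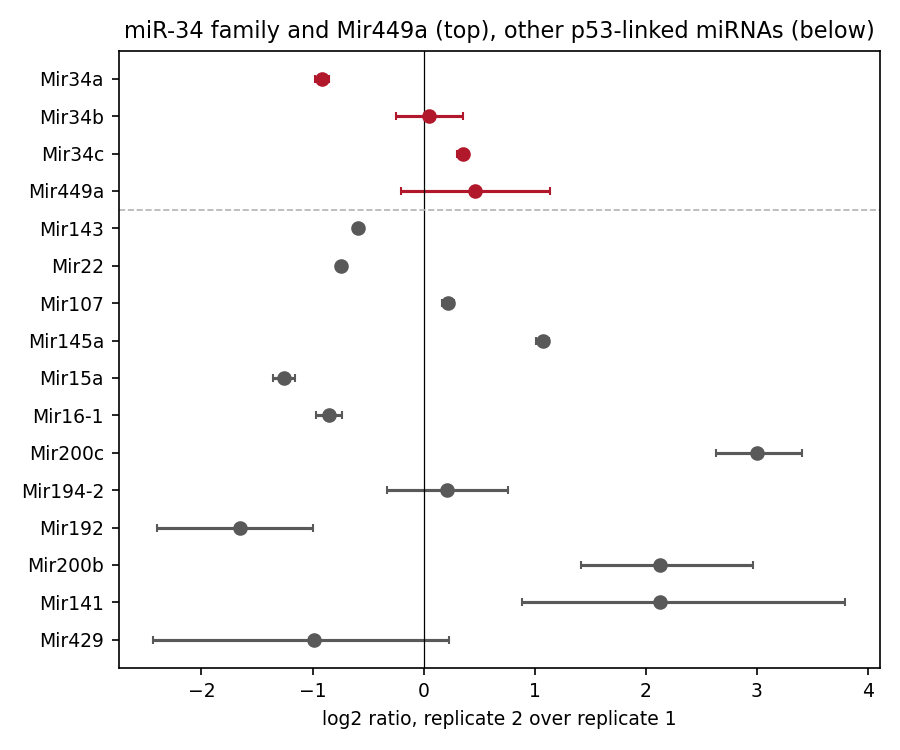
Log2 ratio, replicate 2 over replicate 1, with exact 95% intervals, for the 4 genes (red, above the dashed line) and the 12 tested genes of the other p53-linked list (grey), ordered by mean level. The values go from -1.65 for Mir192 to 3.00 for Mir200c and lie on both sides of 0.

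MicroRNAs reported to repress p53 itself in human cells were listed as well, Mir125b-1, Mir125b-2, Mir25, Mir30d and Mir504. Of the 4 tested, 3 were higher in replicate 1 and Mir30d was higher in replicate 2, where 32.4% and 30.2% of all tested genes were called in these directions. Their median log2 ratio was -0.51, against 0.02 over all tested genes. Mir30d had 9155 and 11289 CPM and a log2 ratio of 0.34 (adjusted p = 2.47e-150, exact test). Mir125b-2 had 277 and 161 CPM and a log2 ratio of -0.74, and Mir125b-1 had 236 and 189 CPM and a log2 ratio of -0.29. Both Mir125b genes share 18 bases with another gene, so their levels may be undercounted. Mir504 had 0 counts in replicate 1 and 1 in replicate 2.

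MicroRNAs that mark other cell types also differed between the libraries. The striated muscle list, of which 5 of 9 genes had any counts and 4 were at 0 in both, was led by Mir206, Mir499 and Mir208a and summed to 598 CPM in replicate 1 and 81.2 in replicate 2. In that list 5 genes share 18 bases with other miRNA genes, among them the 4 at 0. Their reads may be undercounted, so a count of 0 does not show their absence. The endothelial list of Mir126a and Mir126b summed to 64764 and 33414 CPM. The epithelial list, in which all 7 genes had counts, summed to 1192 and 1871 CPM, led by Mir203, Mir200c and Mir200b, and it shares 5 genes with the p53-linked list. The kidney list of 5 genes, led by Mir204, Mir194-2 and Mir192, summed to 110.04 and 72.9 CPM, and it shares 4 genes with the p53-linked list. The erythroid list, Mir451a, Mir486 and Mir144, summed to 902 and 490.2 CPM. The leukocyte list, 5 of 6 in the tables and led by Mir342, Mir150 and Mir142, summed to 2033 and 1985 CPM. The gonad miRNAs Mir383 and Mir202 summed to 244 and 206 CPM, and the liver miRNA Mir122 had 622 and 702 CPM. The neuroendocrine list of 4 genes, for the adrenal medulla, summed to 66107 and 56588 CPM, nearly all Mir375, followed by Mir7b and Mir7-1. No fixed marker of the adrenal cortex was among these miRNAs, so the cortex was not checked. Bulk counts do not place Mir375 in the medulla, so its level is no more than a partial check of the labelled tissue. The summed level was thus higher in replicate 1, as that of Mir34a was, for the striated muscle, endothelial, kidney, erythroid, gonad and neuroendocrine lists. It was higher in replicate 2, as that of Mir34c was, for the epithelial list and Mir122. The leukocyte sums were nearly equal. Of the 5 leukocyte genes tested, 1 was called higher in replicate 1 and 1 higher in replicate 2, and 3 did not pass. Over all tested genes, 32.4% and 30.2% were called in these directions. Mir486 and Mir194-2 had log2 ratios of 0.25 and 0.21, against the sums of the erythroid and kidney lists, and did not pass. Neither gonad gene passed. Within the epithelial list Mir429 had 7.34 CPM in replicate 1 and 3.49 CPM in replicate 2, a difference that did not pass the exact test (adjusted p = 0.169). The part of cell make-up in either difference was not tested, and in bulk tissue fewer cells of a type and less RNA per cell cannot be told apart.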

How the data were processed

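MicroRNA sequencing libraries from total RNA of 2 adrenal samples were analysed as 1 group. The authors deposited raw counts of reads per miRNA gene, with strand ignored, on the own strand and on the opposite strand; the build was mm10 with GENCODE M21, per the notes deposited with the tables, and the sources used here do not give the aligner or counter. Which column holds which strand was judged by column totals. Rows that name no gene hold 73.6% of the 9807567 reads of replicate 1 and 67.2% of the 6993665 of replicate 2 and were left out; 24.0% and 28.0% aligned to several places. The build is of C57BL/6J, and the effect of CAST/EiJ alleles was not tested.

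Levels are CPM with Wilson 95% intervals; a count of 0 allows 3 counts. Log2 ratios have a prior count of 0.5. Library sizes were scaled with TMM on the tested genes (edgeR 4.0.16; factors 1.01 and 0.987), and size factors from DESeq2 1.42.0 were an alternative. Exact tests used SciPy 1.17.1 and were tested on simulated counts that held counting error only. That check of the code does not cover other spread between libraries. Hairpins were folded with RNAfold 2.7.2. With 1 group there was no coefficient for edgeR's quasi-likelihood test. Genes were named by rule: the 4 members, other genes with their seed, the 3 nearest in level to each, the 3 highest of each list and miRNA neighbours within 10 kb. Genes outside this rule (Mir15a, Mir16-1, Mir145a, Mir141, Mir429, Mir25 and Mir504) were named after their values were seen. The members and lists were chosen with earlier results of these data known.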

Additional observations from a re-analysis of the deposited data

Results flagged for a closer look

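Mir34b was flagged for 4 counts on the strand opposite to the gene in replicate 1, more than the 3 that a count of 0 allows. That limit is no test of signal, and replicate 2 had 3 such counts. These opposite-strand counts stand beside 196 and 175 counts on its own strand. No miRNA gene is annotated opposite to Mir34b, but Btg4 is read from that strand. Mir34a, Mir34c and Mir449a had 0 opposite-strand counts in both libraries.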

How the results depend on the processing

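Of 84 alternative values, 65 stayed close to those reported. A level counted as close when it differed by less than the SD of the 2 libraries. Leaving out either library always meets that rule for a level, so those values could not show stability. Per 1000000 of all reads, the mean levels became 582 CPM for Mir34a, 22.5 for Mir34b, 857 for Mir34c, 5.03 for Mir449a and 1467 for their sum. Without the 10 most abundant genes in the totals they became 4487, 169, 6379, 37.3 and 11072 CPM. These move with the denominator by construction. With strand ignored, the totals were smaller too, at 2190727 and 2039157 counts. Mir34b gained 4 and 3 counts, while the counts of Mir34a, Mir34c and Mir449a did not change. The levels thus rose mainly through the totals, to 89.3 CPM for Mir34b and 5770 CPM for the sum. The ranks of Mir34b, Mir34c and Mir449a became 177, 40 and 266. Leaving out either library gave 1389 to 2688 CPM for Mir34a, 75.7 to 76.4 for Mir34b, 2553 to 3174 for Mir34c, 14.3 to 19.2 for Mir449a and 4658 to 5332 for the sum, with ranks of 48 to 66, 193 to 201, 43 to 49 and 270 to 291.

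The log2 ratio stayed between -1.05 and -0.87 for Mir34a and between 0.22 and 0.40 for Mir34c, and both passed the exact test under each of 8 alternatives. Mir34b, which did not pass, changed sign with DESeq2 size factors (-0.041) and with no filter on counts (-0.081), settings that moved every gene by -0.09 and -0.13. Mir449a did not pass under any of 7 alternatives (0.33 to 0.51), and with a minimum summed count of 200 it was not tested. The ratio of Mir34b to Mir34c, 0.812 in replicate 2 relative to replicate 1, became 0.809 with strand ignored and then passed Fisher's exact test, since a few opposite-strand counts were added. The number of differing genes ranged from 181 to 226 against 230, but the share moved with the genes tested. It was 79.0% of 229 genes at a minimum summed count of 200 (181 called), 30.2% of 724 with no filter (219 called) and 62.6% of 337 with strand ignored (211 called), against 62.7% of 367. With DESeq2 size factors or total counts it was 61.6% of 367. Depth limits Mir449a most, with 37 and 44 counts.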
